A study of Mus musculus with 28 samples.

Results

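The canonical and non-canonical NF-κB transcripts of Treg cells from a murine GBM and from the spleen were followed here through 10 genes that act below GITR, the glucocorticoid-induced TNF receptor-related protein. They comprise the 5 NF-κB subunits (Nfkb1, Nfkb2, Rel, Rela and Relb), the inhibitors Nfkbia and Tnfaip3, and the adaptors Birc3, Traf1 and Traf2. The genes were taken by symbol from the expression matrix, in which they are 10 of 53801 features, and all 10 were found. CT2A, a murine GBM line, was grown in the forebrain of C57BL/6 mice, and every mouse whose cells were sequenced carried the tumor. Once tumors had reached 2 mm3, mice received 4 doses of antibody, 250 µg per mouse and 3 days apart. The treated arm was given αPD1 (clone RMP1-14) together with αGITR (clone DTA-1, an agonist), and the control arm IgG2a isotype antibody. Cells were collected 2 days after the last dose. The age of the mice is not given in the sources used here.

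The Treg cells were sorted from tumor and spleen as TCR+CD4+CD25hiCD127lo cells with CD8+ cells excluded, and small bulk RNA libraries were made by Smart-Seq2. The spleen gave 7 IgG2a libraries and 8 αPD1 + αGITR libraries, and GBM gave 5 and 7. Values are TPM (transcript abundance as RSEM gives it), which are scaled for transcript length and for the library total, so the genes can be compared with each other within a library. Read depth per library is not given in the sources used here, so the counting error behind a single value is unknown. The labels do not say what the library numbers mean, and the spleen libraries outnumber the animals that the study gives for this experiment, so some spleen libraries may come from the same mouse. The p-values measure the spread between libraries, which may be partly technical, and p-values that use the spleen may be too small. Genes with more than 1 TPM numbered 7702 to 17460 per library, and the 10 most abundant features took 31.9% to 78.3% of a library's TPM. Foxp3, the defining factor of Treg cells, was present in every library, between 21.5 and 440.4 TPM. No gene of a B cell list of 7 had a mean above 10 TPM in any group. Summed macrophage and microglia transcripts (15 genes) reached 6064 TPM in GBM IgG2a replicate 79_a and 2341 TPM in GBM αPD1 + αGITR replicate 73_a, against at most 356.1 TPM in every other library. Summed housekeeping transcripts (10 genes) were lowest in spleen IgG2a replicates 79_a (1220 TPM) and 79_d (1956 TPM) and in spleen αPD1 + αGITR replicate 72_b (2098 TPM). Counts of the 10 genes without these libraries, a choice made after seeing the data, are given with the comparisons they enter. Summed transcripts of 6 CD8 T and NK cell genes lay between 0.52 and 48.1 TPM, and those of 8 neuron and glia genes between 3.41 and 171 TPM, highest in GBM IgG2a replicate 79_a. The 2 erythroid genes present in the matrix, of 6 listed, summed to 0 to 312 TPM in spleen and at most 3.26 TPM in GBM.

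GITR has no enzymatic activity of its own. When its ligand or an agonistic antibody clusters it, TRAF proteins are recruited to its cytoplasmic tail and carry the signal to the IκB kinases. In the canonical route these kinases mark IκBα for degradation and free dimers of p50 with RelA or c-Rel. In the non-canonical route, NIK and IKKα drive the processing of p100 to p52, which acts with RelB. In Treg cells c-Rel and RelA are known to be needed for the development and maintenance of the lineage. Several of these genes are themselves textbook targets of NF-κB, so the pathway restrains its own activity through newly made IκBα and A20.

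The promoters of Nfkb2, Nfkbia and Tnfaip3, the members with the lowest adjusted p between tissues after treatment, are shown here because NF-κB acts through κB sites in DNA. RefSeq promoter windows (build GRCm38.p6), running from 250 bases before to 50 bases after an annotated start, were found for 8 of the 10 genes, and 11 windows were available in total. Nfkb1 and Relb had no entry. A match to the κB consensus on either strand was present in 6 of these 11 windows, which belong to 4 genes (Nfkb2, Nfkbia, Rel and Tnfaip3), and in 4.51% of all 32851 promoter windows. Nfkb2 has 2 further windows, which overlap and share 1 matching site, so that this site counts in both, and Tnfaip3 has another without one, which are not shown. These windows are written 5′ to 3′ on the strand of the gene, with matches to the κB consensus in capitals. That of Nfkb2 is chr19:46304487-46304786 (plus strand), that of Nfkbia chr12:55492598-55492897 (minus strand) and that of Tnfaip3 chr10:19015361-19015660 (minus strand).
Nfkb2: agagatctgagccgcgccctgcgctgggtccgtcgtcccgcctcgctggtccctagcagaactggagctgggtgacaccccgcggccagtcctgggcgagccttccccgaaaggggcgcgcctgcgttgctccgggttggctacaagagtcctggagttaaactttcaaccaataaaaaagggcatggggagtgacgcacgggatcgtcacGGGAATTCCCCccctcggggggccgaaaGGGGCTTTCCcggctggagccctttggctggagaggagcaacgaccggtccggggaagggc
Nfkbia: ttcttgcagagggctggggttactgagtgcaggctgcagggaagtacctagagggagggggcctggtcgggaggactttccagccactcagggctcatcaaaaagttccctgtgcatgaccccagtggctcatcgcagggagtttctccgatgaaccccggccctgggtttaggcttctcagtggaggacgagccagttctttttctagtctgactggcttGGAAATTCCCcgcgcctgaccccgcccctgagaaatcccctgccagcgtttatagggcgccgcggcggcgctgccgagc
Tnfaip3: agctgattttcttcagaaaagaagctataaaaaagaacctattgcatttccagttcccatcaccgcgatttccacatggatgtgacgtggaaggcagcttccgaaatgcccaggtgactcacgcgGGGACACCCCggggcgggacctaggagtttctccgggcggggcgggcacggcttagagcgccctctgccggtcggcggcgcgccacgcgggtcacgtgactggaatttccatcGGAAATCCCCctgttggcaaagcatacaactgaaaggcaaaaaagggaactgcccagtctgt
In Nfkb2 the matches began at positions -39 and -38 on overlapping frames and at -11, counted from the annotated start. In Nfkbia the match began at -29, and in Tnfaip3 matches began at -125 and -12. A match describes the letters of the window and was not tested as a binding site.

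Among the 10 genes, Nfkbia, which encodes IκBα and holds NF-κB in the cytoplasm, was the most abundant in all 4 groups (positions in GRCm38: chromosome 12, 55489410 to 55492647, minus strand). Its values in the 5 GBM IgG2a libraries were 455.5 TPM (tumor_369_a), 305.4 (76_a), 279.3 (77_a), 197.2 (78_a) and 519.9 (79_a). In GBM αPD1 + αGITR it ranged from 255.4 through a median of 388.7 to 541.9 TPM (n = 7). In spleen IgG2a it ranged from 33.5 through 236.5 to 523 TPM (n = 7), and in spleen αPD1 + αGITR from 42.1 through 154.4 to 396.3 TPM (n = 8). No GBM library fell below 197 TPM, whereas spleen libraries spread more widely and overlapped them in both arms. Nfkbia was the highest of the 10 genes in 5 of 5 and 7 of 7 GBM libraries of the control and treated arms, and in 6 of 7 and 5 of 8 spleen libraries. Relb or Traf1 was highest in the remaining spleen libraries. Its median was above that of 99.1% of detected features in both GBM groups.

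Tnfaip3 encodes A20, a ubiquitin-editing enzyme that shuts off signalling after stimulation (chromosome 10, 19000910 to 19015657, minus strand). The GBM IgG2a libraries held 0.07 TPM (tumor_369_a), 29.7 (76_a), 18.8 (77_a), 37.6 (78_a) and 84.9 (79_a). The treated GBM libraries lay closer together, from 12.3 through 19.1 to 34.2 TPM. Spleen IgG2a ranged from 1.52 through 4.74 to 26.3 TPM, and spleen αPD1 + αGITR from 0 through 6.13 to 20.7 TPM. Both GBM groups had medians above both spleen groups, and the ranges overlapped.

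Nfkb2 encodes p100, the precursor of p52 (chromosome 19, 46304320 to 46312385, plus strand). It held 4.45 TPM (tumor_369_a), 39.5 (76_a), 63.9 (77_a), 144.2 (78_a) and 67.2 (79_a) in GBM IgG2a. The treated GBM libraries ranged from 41.2 through 58.6 to 106.9 TPM. Spleen IgG2a ranged from 15.5 through 26.8 to 80.1 TPM and spleen αPD1 + αGITR from 0.65 through 23.9 to 64.5 TPM. In the treated arm, 7 of 8 spleen libraries lay below every GBM library and 3 of 7 GBM libraries lay above every spleen library.

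Relb, the non-canonical partner of p52, was the member that varied most between libraries in 3 of the 4 groups (chromosome 7, 19606217 to 19629438, minus strand). In GBM IgG2a it was listed at 0 in replicate 79_a and held 17.9 (tumor_369_a), 73 (76_a), 104.2 (77_a) and 139.3 TPM (78_a). The treated GBM libraries ran from 5.07 through 90.8 to 165.8 TPM. Spleen IgG2a ran from 9.9 through 43.8 to 168.5 TPM and spleen αPD1 + αGITR from 0.11 through 16.9 to 116.1 TPM. The standard deviation of Relb on the log2(TPM + 1) scale was 2.93 in GBM IgG2a, 1.59 in treated GBM and 2.36 in treated spleen. All 4 groups overlapped. The lowest GBM values of Relb, in replicates 79_a and 73_a, fell in the 2 libraries with the highest macrophage transcripts, and the part of that signal in the values was not tested.

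By their medians, the canonical subunits were less abundant than Nfkb2 and Relb in both GBM groups and in spleen IgG2a, but in treated spleen Nfkb1 and Rela lay above both. Nfkb1, the precursor of p50 (chromosome 3, 135584655 to 135691547, minus strand), held 95.4 (tumor_369_a), 34.5 (76_a), 34.5 (77_a), 32.9 (78_a) and 45.9 TPM (79_a) in GBM IgG2a. It ran from 21.8 through 32 to 78.7 TPM in treated GBM, from 0.9 through 17.5 to 65.5 TPM in spleen IgG2a and from 4.15 through 28.7 to 73.2 TPM in treated spleen. The ranges of the spleen groups overlapped those of GBM. Rela, which encodes the transactivating subunit p65 (chromosome 19, 5637483 to 5648130, plus strand), had medians of 32.1 and 27.8 TPM in control and treated GBM and 18.9 and 27.9 TPM in control and treated spleen. Rel, which encodes c-Rel (chromosome 11, 23736847 to 23770970, minus strand), was the least abundant subunit, with medians of 4.29, 8.44, 4.9 and 11.6 TPM in the same order. The mean of Rel exceeded 10 TPM in treated spleen alone.

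Of the adaptors, Traf1 was the second most abundant of the 10 genes in every group (chromosome 2, 34941750 to 34961772, minus strand). TRAF1 forms mixed trimers with TRAF2 and is induced in activated lymphocytes. Traf1 held 237.3 (tumor_369_a), 111.6 (76_a), 99.1 (77_a), 103.3 (78_a) and 163.7 TPM (79_a) in GBM IgG2a. It ran from 92 through 155.8 to 193.3 TPM in treated GBM, from 22.5 through 93.3 to 157 TPM in spleen IgG2a and from 40.1 through 101.7 to 143.5 TPM in treated spleen. Traf2, the adaptor that brings cIAP proteins to the receptor (chromosome 2, 25517982 to 25546940, minus strand), had medians of 25.5 and 41 TPM in control and treated GBM and 18.6 and 15.6 TPM in the spleen. Birc3, which encodes the ubiquitin ligase cIAP2 (chromosome 9, 7848699 to 7873186, minus strand), had medians of 17.6 and 16 TPM in GBM and 14.4 and 12.4 TPM in the spleen. Within a library, Traf1 exceeded Traf2 in 26 of 27 cases. The log2 ratio of Traf1 to Traf2 was 2.10 ± 0.23 (SD, n = 5) in GBM IgG2a and 1.80 ± 0.67 (SD, n = 7) in treated GBM. It was 2.29 ± 1.25 (SD, n = 7) and 2.29 ± 1.73 (SD, n = 8) in control and treated spleen.

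**Figure D1:**
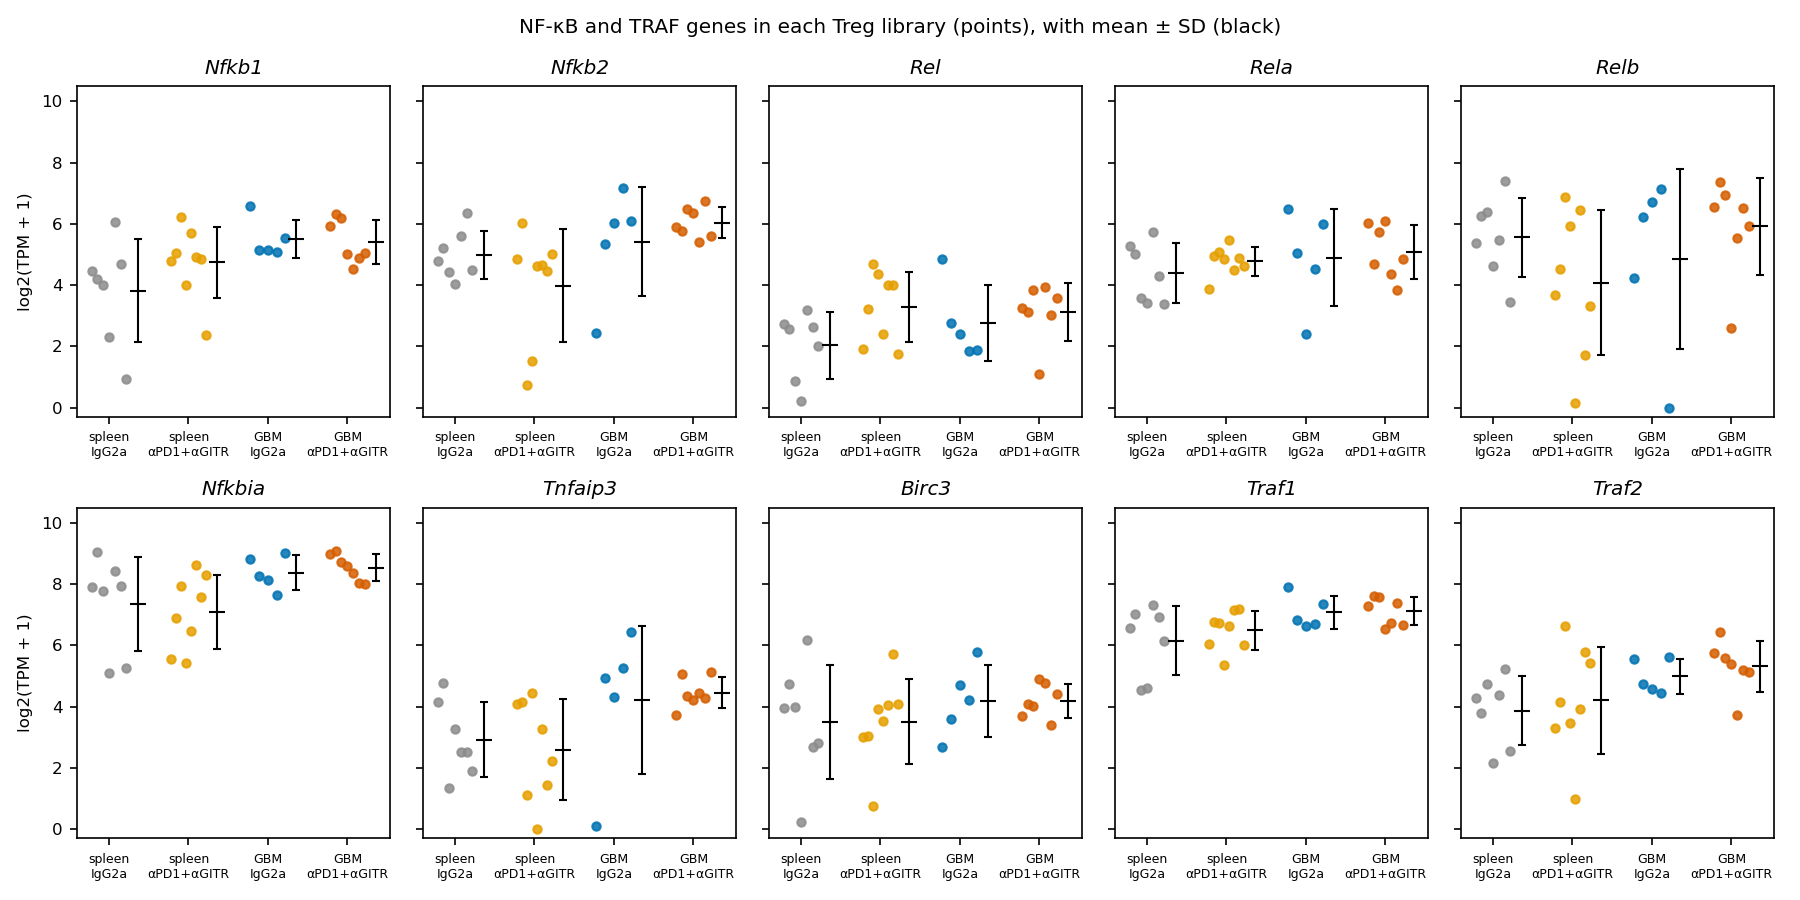
Each panel shows 1 gene, with log2(TPM + 1) on the vertical axis and the 4 groups on the horizontal axis, 1 point per library and the mean ± SD in black beside it. Nfkbia and Traf1 are highest in every group, Relb and Tnfaip3 each have libraries at or near 0, and no gene separates any pair of groups completely.

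The 10 genes were next compared between αPD1 + αGITR and IgG2a within GBM, the contrast of the antibody combination with its isotype control in tumor Treg cells. No library of αGITR alone was analysed here, so the agonist cannot be told apart from αPD1. None of the 9 genes tested passed the test. Nfkbia differed by 0.16 (SE 0.37) and Traf1 by 0.03 (SE 0.41) on the log2(TPM + 1) scale, with 95% confidence intervals of -0.60 to 0.93 and of -0.83 to 0.88. Nfkb1 differed by -0.09 (SE 0.51). The widest intervals were those of Relb, 1.06 (-1.06 to 3.18), and of Tnfaip3, 0.25 (-1.45 to 1.95), and Nfkb2 differed by 0.62 (-0.72 to 1.96). Exact permutation tests over the 5 and 7 libraries (two-sided) gave p = 0.58 for Nfkbia, 0.53 for Nfkb2 and 0.45 for Relb.

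By limma with Benjamini-Hochberg adjustment over 7848 genes, the lowest adjusted p of a member was 0.51, and no gene of any kind was called (0%). That count of 0 became 263 with library weights, 79 with detected genes as a covariate, 103 without treated replicate 73_b and 21 without IgG2a replicate 79_a, with no member among them. At an unadjusted p under 0.05, 22.3% of all genes passed and 0 of 9 members did. The median difference of all genes was 0.62, with 71.6% of all genes and 7 of 9 members higher in treated libraries, and the median of the 9 members was 0.19. No member separated the arms completely, while 2.19% of all genes did. With TMM-type scaling these medians were 0.05 and -0.49, and 1 of 9 members lay above 0 in place of 7 of 9, so no direction could be given for the members. Without the 2 macrophage-rich libraries 9 of 10 members were higher, the medians were 0.80 for all genes and 0.36 for the members, and the 1.06 of Relb became 0.40. Without IgG2a replicate 79_a alone it was -0.15, and the 0.62 of Nfkb2 was -0.12 without tumor_369_a. The part of macrophage transcripts in these values was not tested. With all libraries Rel was not tested, because its mean was under 10 TPM in both groups.

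In the spleen none of the 9 genes tested passed the test between the same arms. The largest differences were those of Relb, -1.48 (95% interval -3.26 to 0.30), Rel, 1.26 (-0.25 to 2.77), Nfkb2, -1.0 (-2.54 to 0.53), and Nfkb1, 0.93 (-0.60 to 2.46). Leaving out 1 library moved Relb to -0.92 (without 72_c), Nfkb2 to -0.54 (without 70_c) and Nfkb1 to 0.45 (without 79_d), and without the 3 libraries of low housekeeping signal Rel was 0.74 and Nfkb1 0.16. Rel was higher than every IgG2a library in 5 of 8 treated libraries (exact permutation p = 0.051). Its mean was above 10 TPM in the treated libraries alone, so Rel was tested through the group where it was higher. Nfkbia differed by -0.25 (-1.68 to 1.19) and Traf1 by 0.33 (-0.90 to 1.57). Leaving out 1 library at a time gave 0.068 (without 77_a) to 0.53 for Traf1. No gene in the spleen comparison was called by limma (0% of 6634), 2.53% passed an unadjusted p under 0.05, and 0 of 9 members did. The means were higher after treatment for 6 of 9 members and 58.1% of all genes, and no member separated the arms completely (0.0151% of all genes). Without the 3 spleen libraries of low housekeeping signal 3 of 10 members were higher, and the median of the members went from 0.33 to -0.45 and that of all genes from 0.15 to -0.20, so no direction could be given for the members. In that setting the difference of Relb was -2.36 (SE 0.93, unadjusted p = 0.018, adjusted p = 0.87).

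Tissue was compared next, first in the control arm. Of the 9 genes tested, 8 had higher means in GBM than in spleen (66.1% of all genes did), and none was called. Nfkb1 differed by 1.69 (SE 0.85, adjusted p = 0.51), and 6 of 7 spleen libraries lay below every GBM library (exact permutation p = 0.040, unadjusted for the 9 genes). Without the spleen libraries 79_a and 79_d, which held 3.98 and 0.9 TPM of Nfkb1 and the lowest housekeeping signal, the difference was 0.82 (SE 0.71). Tnfaip3 differed by 1.29, Traf2 by 1.12, Nfkbia by 1.03, Traf1 by 0.93 and Relb by -0.70. Tnfaip3 had a mean above 10 TPM in GBM but not in spleen, so it was tested through GBM. The value of Tnfaip3 was 0.73 without GBM 79_a and 2.31 without tumor_369_a, and that of Relb was 0.51 without GBM 79_a. Over 7380 genes 0.569% were called, 9.93% passed an unadjusted p under 0.05 and 0 of 9 members did. No member separated the tissues completely, while 1.48% of all genes did. The median difference was 0.48 for all genes and 0.93 for the members. Without spleen 79_a and 79_d these medians were 0.047 and 0.16, with 7 of 9 members higher, and Nfkbia differed by 0.16 in place of 1.03. Without GBM replicate 79_a, rich in macrophage transcripts, 10 of 10 members were higher and the medians were 0.36 and 0.80. Markers of other cells were higher in GBM in the same comparison, 10 of 11 tested macrophage and microglia genes (median 1.71) and 2 of 2 neuron and glia genes (median 2.67), none of them called, and their part in the differences was not tested.

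After αPD1 + αGITR, 2 of the 10 genes were called, both higher in GBM, beside 17.5% of all genes called and 15.8% called higher. Nfkb2 was higher by 2.05 (SE 0.67, adjusted p = 0.039) and Tnfaip3 by 1.86 (SE 0.65, adjusted p = 0.0498). The mean of Tnfaip3 was above 10 TPM in GBM alone, so it was tested through the group where it was higher. Nfkbia differed by 1.44 (SE 0.51, adjusted p = 0.051) and Relb by 1.84 (SE 0.87, adjusted p = 0.12). The differences themselves fell with other settings, to 1.07 for Nfkb2 with the replicate block, 0.87 for Tnfaip3 with a pseudocount of 10 and 0.66 for Nfkbia with TMM-type scaling. With the replicate block no member was called by limma (lowest adjusted p 0.24), and 135 genes were called in place of 1310. Nor was any member called with a pseudocount of 0.1, no filter, the detected-gene covariate or 1 fit of all 4 groups. Exact permutation tests gave p = 0.0019 for Nfkb2, 0.0071 for Nfkbia, 0.0093 for Tnfaip3, 0.047 for Traf1 and 0.10 for Relb, unadjusted for the 10 genes. Traf2 differed by 1.11, Nfkb1 by 0.68, Birc3 by 0.67, Traf1 by 0.62, Rela by 0.31 and Rel by -0.16, and these did not pass the test. Leaving out 1 library at a time gave 0.65 to 1.45 for Traf2, 0.34 to 0.89 for Nfkb1, 0.28 to 0.98 for Birc3 and 0.14 to 0.52 for Rela. The mean of Rel was above 10 TPM in spleen alone. No member separated the tissues completely, while 3% of all genes did.

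The 2 calls stood against 1310 calls among 7506 genes, so the share of members was near the background. At an unadjusted p under 0.05, 4 of 10 members (Nfkb2, Tnfaip3, Nfkbia and Relb) and 40.3% of all genes passed, and 9 of 10 members and 77.6% of all genes had higher means in GBM. The median difference was 0.95 for all genes and 0.89 for the 10 members. With TMM-type scaling 5 of 10 members were higher and these medians were 0.27 and 0.15. Without spleen 72_b, the treated spleen library of low housekeeping signal, Tnfaip3 was called (adjusted p = 0.040) and Nfkb2 was not (adjusted p = 0.072). Of all calls, 1189 were higher in GBM and 121 lower, but with TMM-type scaling the counts were 283 and 321, and with quantile normalization 443 and 651, and no member was called with either. Leaving out 1 library at a time gave 0 to 3 called members. None was called without any 1 of GBM replicates 70_a, 70_b, 72_a, 73_a, 74_a or 80_a or spleen replicate 70_a. One was called without GBM 73_b or without spleen 70_c, 72_b or 72_c, and 3 without spleen 73_a.

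**Figure D2:**
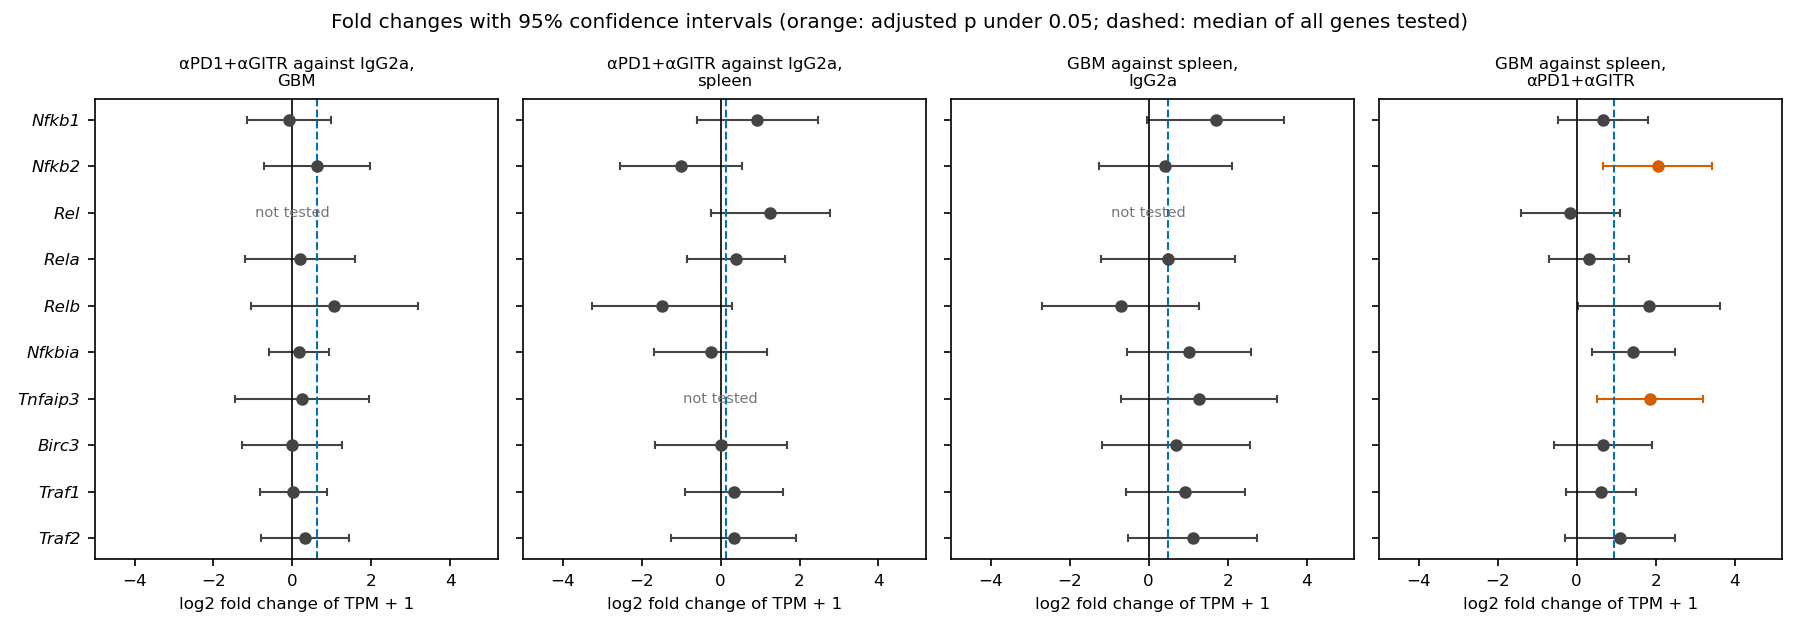
Each panel is 1 comparison, with the log2 fold change of TPM + 1 on the horizontal axis, a point per gene and its 95% confidence interval. The dashed line is the median of all genes tested, and the 2 genes with an adjusted p under 0.05, Nfkb2 and Tnfaip3 in the last panel, are in orange.

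**Figure D3:**
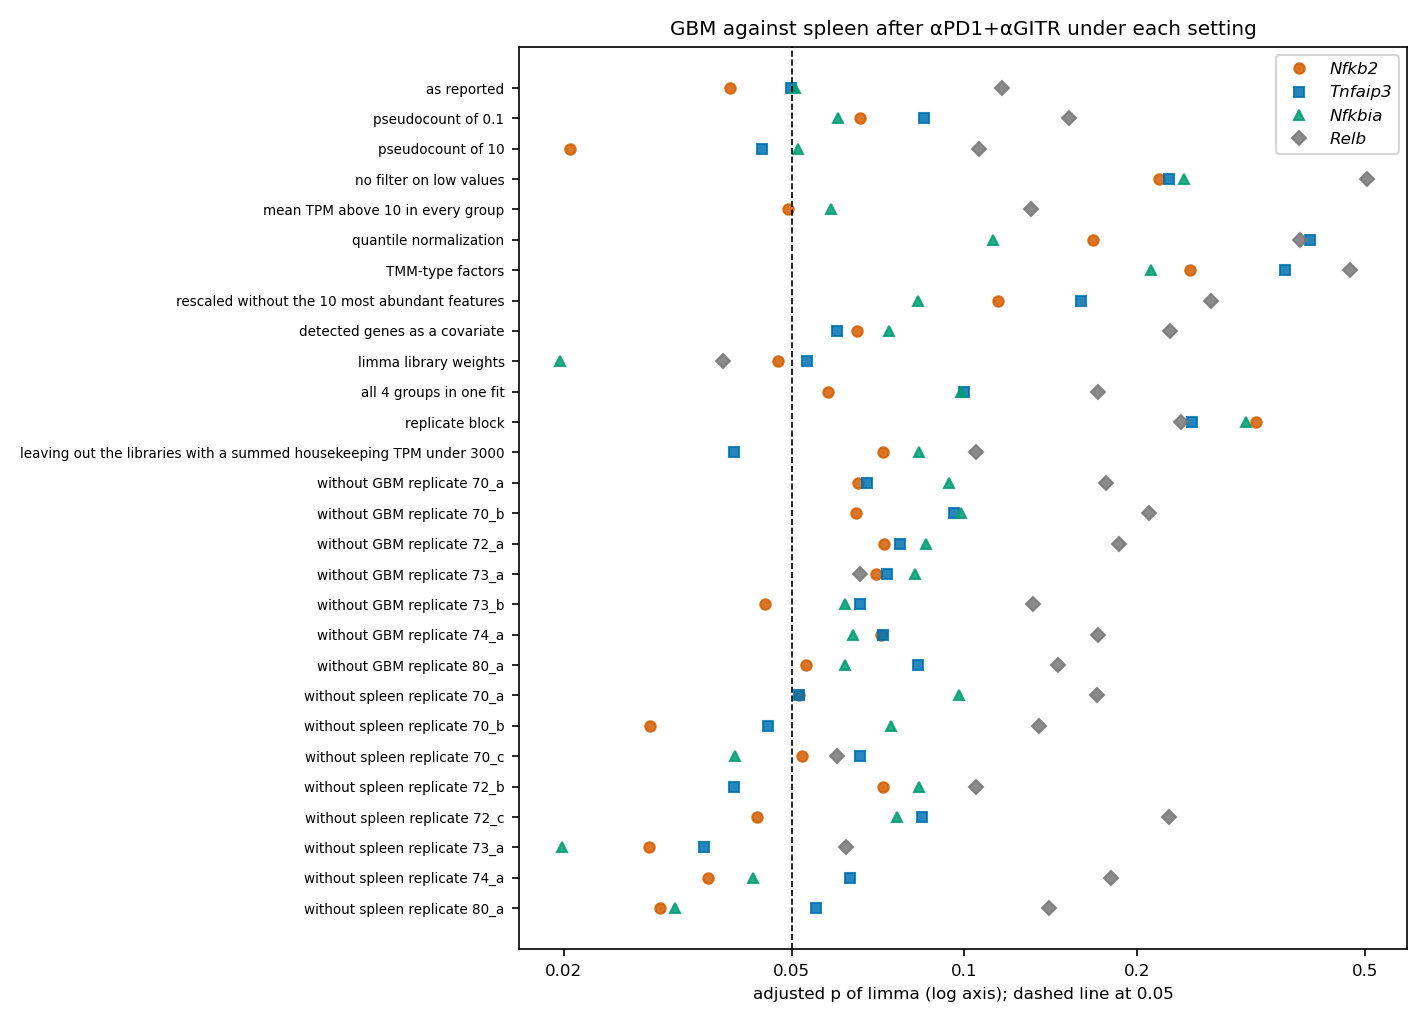
Adjusted p of limma (horizontal log axis, dashed line at 0.05) for Nfkb2, Tnfaip3, Nfkbia and Relb in GBM against spleen after αPD1 + αGITR, for the values as reported and for each alternative on the vertical axis. The points of Nfkb2, Tnfaip3 and Nfkbia lie on both sides of the line, and those of Relb lie above it except with limma library weights.

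The difference between the treatment effects in the 2 tissues was tested directly as an interaction. No member was called, 0 of 10 passed an unadjusted p under 0.05 and 12.2% of all 8687 genes did (0% were called). Relb had the largest interaction, 2.54 (95% interval -0.32 to 5.41, unadjusted p = 0.080), followed by Nfkb2 at 1.62 (-0.49 to 3.73, unadjusted p = 0.13). These non-canonical subunits had higher means in treated than control GBM and lower means in treated than control spleen, and the intervals include 0. In GBM this rested on 1 control library for each gene, since the difference was -0.15 for Relb without replicate 79_a and -0.12 for Nfkb2 without tumor_369_a, and the median of Nfkb2 was lower in treated than in control GBM. The other 8 interactions lay between -1.02 and 0.58, and 4 of 10 were above 0, beside 63.5% of all genes. The count above 0 was 7 of 10 without the 3 libraries of low housekeeping signal, where Relb reached 3.42 (unadjusted p = 0.027, adjusted p = 0.22), 8 of 10 with library weights, 6 of 10 without both macrophage-rich libraries and 3 of 10 with TMM-type scaling. The value of Relb was 1.33 without GBM IgG2a replicate 79_a, where Relb was listed at 0, and 1.35 to 3.55 over the other alternatives apart from leaving out 1 library. That of Nfkb2 was 0.88 without GBM IgG2a library tumor_369_a and 0.32 with library weights.

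Transcript levels within a library were also compared as ratios of TPM + 1, which do not measure the activity of either NF-κB route. The log2 ratio of Nfkb2 to Nfkb1 was 1.18 ± 1.30 (SD, n = 7) in spleen IgG2a and -0.75 ± 2.42 (SD, n = 8) in treated spleen. It was -0.09 ± 2.38 (SD, n = 5) in GBM IgG2a and 0.62 ± 0.83 (SD, n = 7) in treated GBM. The medians of control and treated GBM were 0.54 and 0.55, and the lowest control library, tumor_369_a, lay at -4.14. The log2 ratio of Relb to Rela was 1.17 ± 1.33, -0.69 ± 2.52, -0.03 ± 4.11 and 0.84 ± 2.08 in the same groups. Its medians in control and treated GBM were 1.16 and 1.15. The lowest control GBM library, 79_a with Relb listed at 0, lay at -5.99. In both cases the ratio exceeded 0 in 6 of 7 control and 3 of 8 treated spleen libraries. In control and treated GBM, 4 of 5 and 5 of 7 libraries exceeded 0 for Nfkb2 to Nfkb1. For Relb to Rela these counts were 3 of 5 and 6 of 7. The log2 ratio of Nfkbia to Rela was above 0 in all 27 libraries, at 2.96 ± 1.00, 2.33 ± 1.24, 3.48 ± 1.29 and 3.45 ± 0.73 in the same groups. These ratios were not tested between groups.

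The sum of the 10 genes was 121.9 to 880.8 TPM (median 511.3) in spleen IgG2a and 226.3 to 754 TPM (median 465.1) in treated spleen. It was 655.9 to 1050 TPM (median 717.4) in GBM IgG2a and 620.9 to 1199 TPM (median 753.9) in treated GBM. The housekeeping sum moved with it. The 4 libraries with the lowest sums of the 10 genes, spleen 79_a, 79_d, 70_a and 72_b, were also the 4 with the lowest housekeeping sums. As a percentage of the housekeeping sum the 10 genes came to medians of 6.32% and 6.0% in control and treated spleen and 5.37% and 4.51% in control and treated GBM, so the higher sum in GBM was not seen relative to these housekeeping genes. In bulk libraries, fewer cells of a type and less RNA per cell cannot be told apart.

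**Figure D4:**
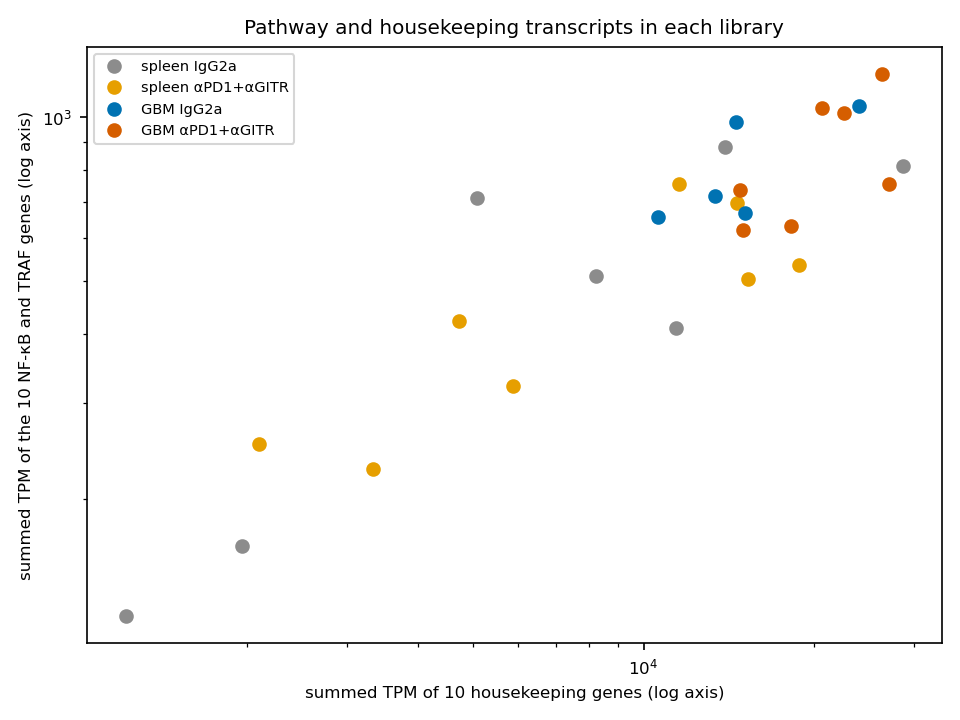
Each point is 1 library, with the summed TPM of 10 housekeeping genes on the horizontal log axis, the summed TPM of the 10 NF-κB and TRAF genes on the vertical log axis and the group in colour. The lowest points, spleen 79_a and 79_d, are low on both axes, and every GBM library exceeds 620 TPM on the vertical axis.

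The spread between libraries set the precision of all these comparisons. On the log2(TPM + 1) scale, the median SD of the members with a mean above 10 TPM was 1.21 in both spleen groups, 1.17 in GBM IgG2a and 0.54 in treated GBM. All genes above 10 TPM had median SDs of 1.53, 1.53, 1.74 and 0.75 in these groups. The tightest member was Nfkbia in treated GBM (SD 0.43), and Traf1 in GBM IgG2a (SD 0.54). Treated GBM was thus the group with the smallest spread for members and for genes in general.

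The receptor and its ligand frame the pathway. Tnfrsf18, which encodes GITR, held 145.5 (tumor_369_a), 295.1 (76_a), 243.9 (77_a), 187 (78_a) and 348.1 TPM (79_a) in GBM IgG2a and ran from 186.4 through 450.2 to 515.3 TPM in treated GBM. It ran from 5.92 through 24.1 to 157.5 TPM in spleen IgG2a and from 0 through 33.6 to 277.9 TPM in treated spleen. The GITR ligand gene Tnfsf18 was below 1 TPM in every library. Tnfrsf18 was called in GBM against spleen after treatment (3.67, SE 0.80, adjusted p = 0.0056), as were Tnfrsf9 (4-1BB, 3.87), Tnfrsf4 (OX40, 3.45) and Tnfrsf1b (TNFR2, 2.40). These 4 of the 7 tested TRAF-recruiting receptors of a list of 10 were also called with TMM-type scaling, where their differences were 3.05, 3.13, 2.71 and 1.63 in the same order. Of all 7506 genes tested, 15.8% were called higher as reported, and 283 genes with TMM-type scaling. In the control arm Tnfrsf9 was called (4.36, SE 0.86, adjusted p = 0.0079). Tnfrsf18 differed by 3.17 in that arm and was not called. There 6 of 7 spleen libraries lay below every GBM library (exact permutation p = 0.0051, unadjusted). Between the treatment arms in GBM, Tnfrsf18 differed by 0.69 (SE 0.38, unadjusted p = 0.089), a value that was -0.01 with TMM-type scaling.

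Other genes of the pathway were read from lists of the IκB family, the IκB kinases, the remaining TRAF and cIAP proteins, ubiquitin-editing enzymes and commonly cited targets. In GBM against spleen after treatment, 3 of the 5 other IκB genes were called higher. These were Bcl3, a nuclear coactivator of p50 and p52 (3.26, SE 0.70, adjusted p = 0.0047), Nfkbie, which encodes IκBε (2.45, SE 0.67, adjusted p = 0.019), and Nfkbib, which encodes IκBβ (2.02, SE 0.69, adjusted p = 0.045). Bcl3 was also called with each of the 3 other scalings (differences of 2.62, 2.55 and 3.21), and Nfkbie and Nfkbib with none of them (adjusted p of 0.050 to 0.079 for Nfkbie). The median of the 5 was 2.02, beside 0.95 for all genes, of which 15.8% were called higher.

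Of the 12 tested target genes in this contrast, 4 were called higher, namely Ccnd2, which encodes cyclin D2 (1.91, adjusted p = 0.017), Il2ra, the CD25 used in the sort (1.62, adjusted p = 0.026), Icam1 (1.96, adjusted p = 0.034) and Gadd45b (2.64, adjusted p = 0.034). Of all genes in this contrast 15.8% were called higher, and the median was 1.38 for the 12 targets and 0.95 for all genes. With TMM-type scaling none of the 12 was called. Traf7 was the 1 of 10 other TRAF and adaptor genes called (1.92, adjusted p = 0.048). None of 5 tested IκB kinase genes and none of 8 ubiquitin-editing genes was called. Housekeeping genes moved the same way, with 4 of 10 called higher in GBM and a median of 1.35. Of 9 tested macrophage and microglia genes 2 were called higher, Cx3cr1 (2.97, adjusted p = 0.0076) and C1qa (2.59, adjusted p = 0.038), with a median of 1.94, and the erythroid gene Alas2 was called lower (-3.83, adjusted p = 0.010). The part of such transcripts in the differences between tissues was not tested. Of 7 Treg identity genes, among them Il2ra, 4 were called higher, with a median of 1.57.

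Within GBM, no gene of these lists was called between αPD1 + αGITR and IgG2a. The genes nearest to the threshold were Tnf (2.31, adjusted p = 0.13) and Ltb (1.18, adjusted p = 0.14) among the targets. Among the IκB genes they were Nfkbid (2.33, adjusted p = 0.17) and Nfkbie (1.39, adjusted p = 0.19), and 3 of these 5 passed an unadjusted p under 0.05, as 22.3% of all genes did. So did 2 of 5 kinase genes, 1 of 10 other TRAF and adaptor genes, 1 of 8 ubiquitin-editing genes and 4 of 13 targets. In the receptor list it was 0 of 8. In the spleen, 0 genes of these 5 lists and of the receptor list passed an unadjusted p under 0.05. In GBM against spleen in the control arm, Tnfrsf9 was the only gene of these 6 lists called. The kinase gene Ikbke differed by -2.15 (adjusted p = 0.42) and Gadd45b by 2.47 (adjusted p = 0.39).

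**Figure D5:**
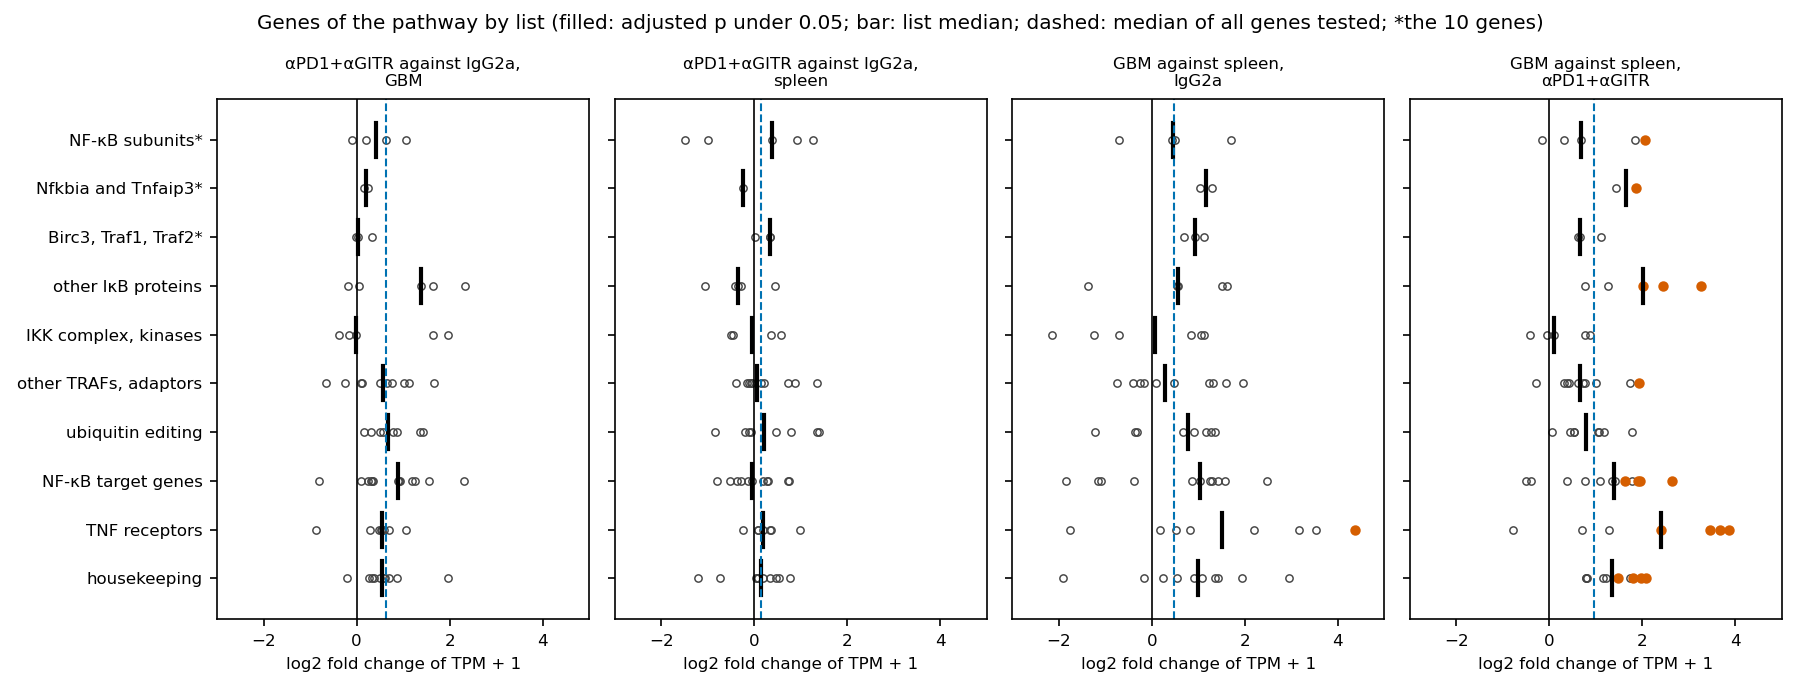
Each row is a gene list and each panel a comparison, with the log2 fold change of TPM + 1 on the horizontal axis, 1 circle per tested gene, filled where its adjusted p was under 0.05, a bar at the list median and a dashed line at the median of all genes. The 3 upper rows hold the 10 genes. Filled circles appear only in the panels of GBM against spleen, and only for Tnfrsf9 in the control arm.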

How the data were processed

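Bulk RNA-seq was made by Smart-Seq2 from sorted Treg cells of spleen and CT2A GBM. Reads were aligned by the authors with TopHat2 to mm10 and quantified with RSEM, and the deposited matrix holds TPM plus 1 (lowest value 1), so 1 was subtracted. The matrix has 27 columns named for the 28 libraries described and 1 column with no name, which was not used, so 1 treated spleen library was not analysed here. The annotated positions are from GENCODE vM21 and the promoters from RefSeq.

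Genes with a mean above 10 TPM in at least 1 of the groups compared were tested on log2(TPM + 1) with limma 3.58.1 (R 4.3.3, trended empirical Bayes, only the groups compared), with Benjamini-Hochberg adjustment over all genes tested and a threshold of 0.05. A fold change on this scale understates the change of low genes. Single members were also compared by two-sided exact permutation of the libraries (scipy 1.17.1). The scripts were tested on simulated data. No 2 libraries had identical values. All 10 members were named, and in the other lists the genes with an adjusted p under 0.05 (at most 4, by lowest p) or otherwise at most 2 with the lowest unadjusted p. The members and lists were chosen with earlier results of these data known. Alternatives were the pseudocount, the filter, 3 other scalings, a covariate for detected genes, library weights, 1 fit of all 4 groups, a replicate block and leaving out libraries. One further gene list is not reported here.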

Additional observations from a re-analysis of the deposited data

Results flagged for a closer look

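Of the 40 combinations of a member and a group, 2 had 1 library standing apart from the rest, about as many as the 2 that chance gives at 1 in 20. Both lay in GBM αPD1 + αGITR replicate 73_a, the treated library with the most macrophage transcripts, and the part of these transcripts was not tested. Rel was 1.16 TPM there, at a distance from the next library of 0.68 of the range of the group on the log2 scale. Relb was 5.07 TPM there, at a distance of 0.61 of the range.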

How the results depend on the processing

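The number of called members stayed at 0 for treatment in GBM, treatment in spleen, tissue after IgG2a and the interaction under every alternative run. For tissue after treatment, where 2 were called, the number was 0 with a pseudocount of 0.1, no filter, quantile normalization, TMM-type factors, rescaling without the 10 most abundant features, the detected-gene covariate, 1 fit of all 4 groups and the replicate block. It was 1 when a mean above 10 TPM was required in every group and 1 without the libraries of low housekeeping signal, 2 with a pseudocount of 10 and 3 with library weights, and leaving out 1 library at a time gave 0 to 3. Tnfaip3 and Rel were not tested where that mean was required in every group. Spleen and GBM libraries alike in number and letter had correlations of -0.19 to 0.15 over genes between their deviations. A pair alike in number alone reached -0.34 (GBM 73_b with spleen 73_a). Correlations between libraries this variable cannot tell whether a shared number marks a shared mouse. The reported fits did not pair them. The replicate block joined libraries of an arm alike in number and letter. Under it, calls over all genes went from 42 to 10 after IgG2a and from 1310 to 135 after treatment. After IgG2a that count ran from 6 with no filter to 262 with library weights. Differences of members that were not called changed sign under some settings, and the cause was not tested. With TMM-type factors they were for treatment in GBM -0.032 (Nfkb2), -0.49 (Rela), -0.54 (Nfkbia), -0.070 (Tnfaip3), -0.67 (Traf1) and -0.36 (Traf2), for tissue after treatment -0.097 (Nfkb1), -0.45 (Rela), -0.079 (Birc3) and -0.16 (Traf1) and for the interaction -0.16 (Nfkbia). With detected genes as a covariate they were for treatment in spleen 0.15 (Nfkbia) and -0.23 (Birc3) and for the interaction 0.11 (Birc3). With library weights they were for treatment in GBM 0.27 (Nfkb1), -0.18 (Nfkb2), -0.25 (Relb) and -0.37 (Tnfaip3), for treatment in spleen -0.45 (Birc3), for tissue after IgG2a -0.58 (Rela) and 0.66 (Relb), for tissue after treatment 0.21 (Rel) and for the interaction 0.097 (Rel), 0.89 (Rela), -0.25 (Tnfaip3), 0.29 (Birc3), 0.089 (Traf1) and 0.52 (Traf2). With a pseudocount of 0.1 they were for treatment in GBM 0.0037 (Birc3) and for the interaction 0.041 (Traf2). With a pseudocount of 10 they were for treatment in GBM -0.16 (Tnfaip3), for treatment in spleen -0.088 (Birc3) and for the interaction -0.095 (Tnfaip3) and 0.017 (Birc3). With quantile normalization they were for treatment in GBM -0.067 (Nfkbia), -0.45 (Tnfaip3) and -0.15 (Traf1), for treatment in spleen -0.029 (Birc3), for tissue after IgG2a -0.38 (Rela), for tissue after treatment -0.31 (Rela) and -0.33 (Birc3) and for the interaction 0.043 (Rela) and -0.046 (Tnfaip3). With rescaling without the 10 most abundant features they were for treatment in GBM -0.12 (Traf1) and for tissue after treatment -0.063 (Rela). With both macrophage-rich libraries left out (chosen after seeing the data) they were for treatment in GBM 0.27 (Birc3) and for the interaction 0.26 (Birc3) and 0.14 (Traf2). With the 3 libraries of low housekeeping signal left out (also chosen after seeing the data) they were for treatment in spleen -0.027 (Rela), -0.85 (Birc3) and -0.17 (Traf2), for tissue after IgG2a -0.10 (Birc3) and for the interaction 0.22 (Rela), 0.83 (Birc3) and 0.50 (Traf2). Leaving out 1 library at a time gave differences for treatment in GBM Nfkb1 -0.24 to 0.18, Nfkb2 -0.12 to 1.06, Rela -0.43 to 0.59, Relb -0.15 to 1.63, Nfkbia -0.025 to 0.32, Tnfaip3 -0.78 to 0.80, Birc3 -0.39 to 0.39 and Traf1 -0.084 to 0.23, for treatment in spleen Nfkbia -0.62 to 0.033, Birc3 -0.54 to 0.45 and Traf2 -0.012 to 0.79, for tissue after IgG2a Nfkb2 -0.015 to 1.17 and Relb -1.27 to 0.51, for tissue after treatment Rel -0.38 to 0.17 and for the interaction Rela -0.81 to 0.21, Tnfaip3 -0.45 to 1.13, Birc3 -0.47 to 0.52 and Traf2 -0.47 to 0.34. Unknown read depth limits the low values, above all those of Rel and Tnfaip3.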

Other observations

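Extreme values of the members were concentrated in a few libraries. Spleen IgG2a replicate 79_b held the highest value of its group for Nfkb1, Rel, Rela, Birc3 and Traf1, and replicate 79_a the lowest for Nfkb2, Rel, Nfkbia, Birc3 and Traf2. GBM αPD1 + αGITR replicate 70_b was highest for Nfkb1, Relb, Nfkbia, Traf1 and Traf2. GBM IgG2a library tumor_369_a was highest for Nfkb1, Rel, Rela and Traf1 and lowest for Nfkb2, Tnfaip3 and Birc3, and it had the fewest genes above 1 TPM (7702).

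Immediate early and stress genes such as the AP-1 family are induced alongside NF-κB in activated lymphocytes. Of 7 tested in a list of 12, 3 had higher means in GBM than in spleen after treatment and none was called, with a median difference of -0.38 beside 0.95 for all genes. The genes nearest to the threshold, Junb (2.19, adjusted p = 0.072 by limma) and Ier2 (1.30, adjusted p = 0.075), were among those with higher means in GBM. Whether the list differs from other genes was not tested.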
